A study of Mus musculus with 9 samples.

Results

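A set of 10 genes of the canonical TGFβ pathway were followed in cultured mouse muscle cells: the receptor-activated SMADs *Smad2* and *Smad3*, the common partner *Smad4*, the inhibitory SMADs *Smad6* and *Smad7*, the SMAD corepressors *Ski* and *Skil*, the SMAD ubiquitin ligases *Smurf1* and *Smurf2*, and *Pmepa1*, whose product holds receptor-activated SMADs away from the receptor. The genes were taken by name for their roles in the pathway, with earlier results of these data known, and all 10 were among the 24704 genes tested. The cells were primary myoblasts that grew from muscle stem cells (satellite cells) sorted with magnetic beads from the hindlimbs of C57BL/6 mice (C57Bl6/N in the methods). The methods give the mice an age of 2 to 5 months. Every culture was first kept in differentiation medium for 24 h. One group then received 20 ng/ml of recombinant TGFβ1 for a further 24 h. A second group received ITD-1, a small molecule that clears the type II TGFβ receptor TGFBR2 from the cell surface, for the same 24 h, at 5 µM by the methods and 5 mM by the sample labels. The control cultures were left untreated. Whether they received the solvents is not given in the sources used here. Each group held 3 cultures, each measured on 1 array. The paper describes the transcriptome as 3 biologically independent experiments. The labels do not say that the cultures came from separate animals, so the p-values measure the spread between these cultures.

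In this pathway the ligand joins type II and type I receptors at the membrane, and the type I receptor phosphorylates SMAD2 and SMAD3. These bind SMAD4, enter the nucleus and switch on target genes, among which are several of the pathway's own brakes. SMAD7 and SMAD6 compete at the receptor and bring in the ubiquitin ligases SMURF1 and SMURF2, SKI and SKIL recruit histone deacetylases to SMAD complexes on DNA, and PMEPA1 binds SMAD2 and SMAD3 in the cytoplasm. In muscle cells TGFβ is known to restrain differentiation and fusion.

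Levels are RMA log2 signals, on which a difference of 1 is a 2-fold change. They can be compared between arrays for the same gene but not between genes, and the number of arrays limits their precision. The median signals of the 9 arrays, which RMA makes alike, were 4.09 to 4.19. Across genes the correlation was between 0.992 and 0.996 within a group and between 0.983 and 0.995 for arrays of different groups. All 10 genes had a mean at or above the median gene's level of 4.14. The cultures bore the markers of muscle cells. The summed signal of 9 muscle genes (*Myod1*, *Myog*, *Des*, *Mymk*, *Myh3*, *Actc1*, *Chrna1*, *Ckm* and *Tnnt2*) ranged from 15.26 to 15.30 with TGFβ1, from 15.35 to 15.38 with ITD-1 and from 15.30 to 15.36 in control on the log2 scale. The TGFβ1 arrays lay just below the control arrays. None of the 9 was below the array median in any group. The defining markers of fibroblasts (5 of 5 measured) and endothelial cells (5 of 5) and 3 of 4 macrophage markers lay below the array median in every group. The summed fibroblast signal was 5.73 to 5.81 with TGFβ1, 5.66 to 5.76 with ITD-1 and 5.65 to 5.76 in control, and that of 5 satellite cell markers 9.58 to 9.70, 9.73 to 9.84 and 9.64 to 9.77 in the same groups. *Ly6a* and *Lyz2*, also on these lists, were not analysed here. A pair of muscle markers changed with TGFβ1, *Ckm* upward by 0.93 and *Myh3* with a difference of -0.31 (limma adjusted p 5.10e-04 and 0.0224). The *Myh3* call held in 12 of 20 alternatives, and was lost without TGFβ1 replicate 1 or 2 or any 1 control array (adjusted p 0.0583 to 0.0876). What part these shifts have in the results below was not tested. In such bulk RNA a smaller number of cells that express a gene and less of its RNA per cell cannot be told apart.

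Promoter sequence of 5 of the 10 genes (*Smad3*, *Smad6*, *Ski*, *Smurf1* and *Smurf2*) was matched in RefSeq for GRCm38.p6, and the 300 bases from 250 before to 50 after each transcription start were searched on both strands for 3 words that SMAD proteins are known to bind. These were the SMAD box CAGAC, which reads GTCTG on the other strand, the GC-rich element GGCGC, which there reads GCGCC, and the palindrome GTCTAGAC. Overlapping matches were counted separately, so that the run GGCGCC counts for 2. Over 32851 promoters of the same length, 49.6% held the SMAD box, 36.9% the GC-rich element and 0.213% the palindrome. A match describes the letters only and says nothing about binding. *Smad2*, *Smad4*, *Smad7*, *Skil* and *Pmepa1* were not searched. The gene match left out all promoters of a chromosome, so a gene with no window here may still have a promoter in RefSeq. Of the 5 genes searched, 4 are printed below from 250 bases before to 10 bases after the start, in the gene's own direction. They pair the searched gene that fell with TGFβ1 (*Smad3*), those that rose (*Ski* and *Smurf2*) and the gene with the palindrome (*Smad6*). Capitals mark any of the 3 words. All 4 lie on the minus strand, at chr9:63757985-63758244 (*Smad3*), chr9:64022050-64022309 (*Smad6*), chr4:155222526-155222785 (*Ski*) and chr11:106920706-106920965 (*Smurf2*).
Smad3: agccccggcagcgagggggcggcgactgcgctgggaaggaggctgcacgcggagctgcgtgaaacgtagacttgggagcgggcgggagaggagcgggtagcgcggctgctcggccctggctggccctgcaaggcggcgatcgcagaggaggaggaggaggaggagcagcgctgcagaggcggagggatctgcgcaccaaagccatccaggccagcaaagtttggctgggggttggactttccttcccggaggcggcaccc
Smad6: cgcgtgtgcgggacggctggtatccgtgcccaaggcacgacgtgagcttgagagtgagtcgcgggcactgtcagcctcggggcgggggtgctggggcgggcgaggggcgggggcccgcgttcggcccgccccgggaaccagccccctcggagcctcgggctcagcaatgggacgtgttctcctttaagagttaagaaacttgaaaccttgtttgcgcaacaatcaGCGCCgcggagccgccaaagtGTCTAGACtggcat
Ski: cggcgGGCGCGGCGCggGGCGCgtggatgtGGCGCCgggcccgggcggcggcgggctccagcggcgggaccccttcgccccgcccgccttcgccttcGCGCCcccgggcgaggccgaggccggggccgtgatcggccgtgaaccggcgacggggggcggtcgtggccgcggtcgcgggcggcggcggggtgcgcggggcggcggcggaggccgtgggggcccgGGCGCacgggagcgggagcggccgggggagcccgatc
Smurf2: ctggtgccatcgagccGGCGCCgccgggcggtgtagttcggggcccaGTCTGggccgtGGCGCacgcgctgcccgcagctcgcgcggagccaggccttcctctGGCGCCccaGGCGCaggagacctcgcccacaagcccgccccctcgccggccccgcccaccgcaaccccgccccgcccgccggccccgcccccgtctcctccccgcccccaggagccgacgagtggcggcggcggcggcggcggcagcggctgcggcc

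The *Smad3* window held none of the 3 words. That of *Ski* held 7 GC-rich elements and no SMAD box, and that of *Smurf2* held 6 GC-rich elements and 2 SMAD boxes, of which 1 lay after the printed run. *Smurf1*, at chr5:144965821-144966080 on the minus strand, held 4 GC-rich elements and 2 SMAD boxes. Among the 5 windows searched, the palindrome was found once, in *Smad6*, beginning 4 bases before the start. That window also held 2 GC-rich elements. *Smad7*, the other inhibitory SMAD, was not searched. The 5 windows were rich in G and C bases, which made up 66.3% to 85.3% of each.

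With TGFβ1, 5 of the 10 genes rose and 1 fell against control. *Pmepa1* rose 3.07-fold, *Skil* 1.95-fold, *Smad7* 1.89-fold, *Ski* 1.64-fold and *Smurf2* 1.30-fold, and *Smad3* fell 1.62-fold. The genes that rose were 1 of the 2 inhibitory SMADs, both corepressors, 1 of the 2 SMURF ligases and *Pmepa1*. *Smad2*, *Smad4*, *Smad6* and *Smurf1* did not pass the test. A gene was called at a Benjamini-Hochberg adjusted p under 0.05 from limma's moderated test over all 24704 genes, two-sided, by which 3.65% of all genes were called higher and 2.78% lower with TGFβ1. The median difference of the 10 genes was 0.29, against -0.01 over all genes tested. The 3 TGFβ1 arrays lay above the 3 control arrays for 7 of the 10 genes, as they did for 10.4% of all genes, and below them for 1 of the 10, against 10.1% of all genes.

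**Figure D1:**
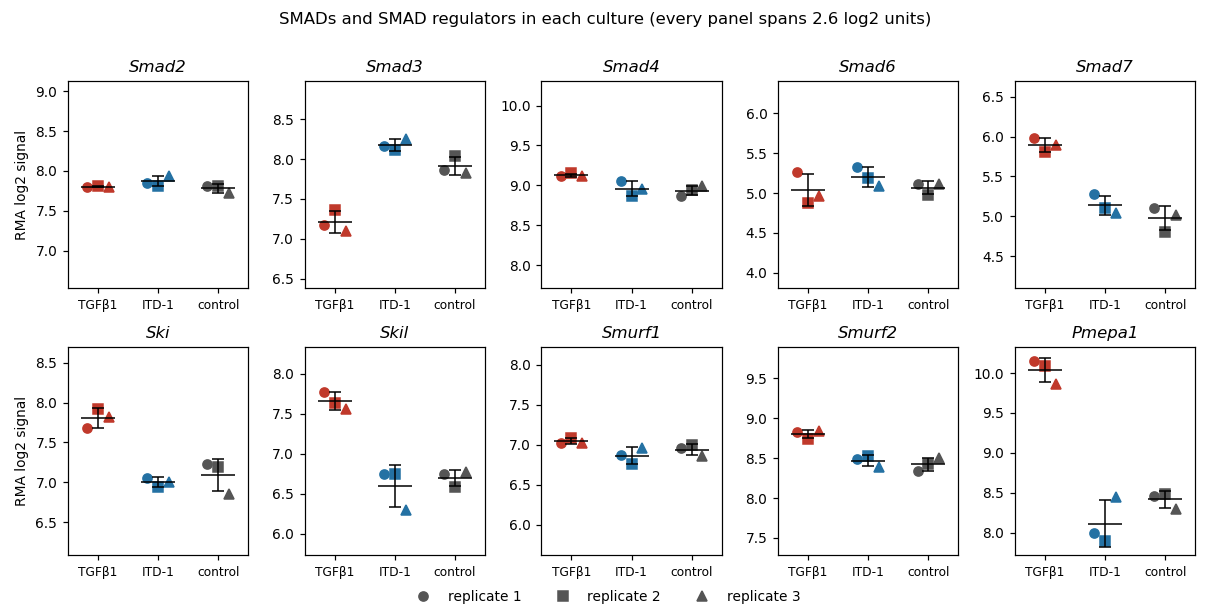
RMA log2 signal of the 10 genes in each culture, by group (TGFβ1, ITD-1, control). Markers are the 3 replicates, the horizontal bar is the group mean and the error bar its SD, and every panel spans the same number of log2 units on an axis of its own. *Pmepa1* sits between 9.87 and 10.16 with TGFβ1, above every other culture, and *Smad3* sits between 7.10 and 7.37, below every other culture.

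Of the receptor-activated SMADs, *Smad3* passed the test with TGFβ1 and *Smad2* did not, and the difference between their responses was not tested. *Smad3* (Entrez gene 17127) gave 7.17, 7.37 and 7.10 with TGFβ1, 8.17, 8.11 and 8.25 with ITD-1, and 7.87, 8.04 and 7.82 in control. The 3 groups did not overlap, with TGFβ1 lowest and ITD-1 highest. *Smad3* fell by 0.70 ± 0.09 with TGFβ1 (log2 difference ± SE), with an adjusted p of 0.00137 from limma. With ITD-1 it was 0.27 above control, with a 95% interval of 0.06 to 0.47, an unadjusted limma p of 0.0152 and an adjusted p of 0.428, so it did not pass the test. Set directly against ITD-1, TGFβ1 cultures were lower by 1.95-fold, with an adjusted p of 9.66e-05.

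*Smad2* (Entrez gene 17126), the close relative of *Smad3*, gave 7.80, 7.81 and 7.80 with TGFβ1, 7.86, 7.81 and 7.94 with ITD-1, and 7.81, 7.81 and 7.72 in control. The groups overlapped. The difference of TGFβ1 from control was 0.02, with a 95% interval of -0.12 to 0.16, and that of ITD-1 was 0.09, with an interval of -0.05 to 0.23. In 4 arrays *Smad2* had the identical deposited value, as 12.8% of all genes had in 4 or more arrays. For *Smad4* (Entrez gene 17128), which joins the activated SMADs in the nucleus, the values were 9.12, 9.15 and 9.11 with TGFβ1, 9.05, 8.87 and 8.95 with ITD-1, and 8.87, 8.94 and 8.99 in control. The TGFβ1 arrays lay above all others by a narrow margin, with a difference from control of 0.19 and an interval of 0.04 to 0.35, but the adjusted p of 0.167 did not pass.

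Of the inhibitory SMADs, *Smad7* passed with TGFβ1 and *Smad6* did not, and their responses were not tested against each other. *Smad7* (Entrez gene 17131), which blocks the type I receptor of the TGFβ and BMP arms, gave 5.99, 5.80 and 5.89 with TGFβ1, 5.27, 5.10 and 5.04 with ITD-1, and 5.11, 4.81 and 5.02 in control. All TGFβ1 arrays were higher than all others, while those of ITD-1 and control overlapped. The rise with TGFβ1 over control was 0.92 ± 0.10 (SE), with an adjusted p of 3.88e-04. ITD-1 differed from control by 0.16, with an interval of -0.06 to 0.38 and an adjusted p of 0.769. The control mean of *Smad7* was 4.98, against 4.14 for the median gene. Whether a fall could register at so low a level was not tested. The level of *Smad7* was 1.69-fold higher in TGFβ1 than in ITD-1 cultures, with an adjusted p of 7.01e-04.

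*Smad6* (Entrez gene 17130), which acts chiefly on the BMP arm, gave 5.27, 4.88 and 4.97 with TGFβ1, 5.33, 5.19 and 5.08 with ITD-1, and 5.12, 4.97 and 5.12 in control. The groups overlapped, and the spread among TGFβ1 cultures (SD 0.20, n = 3) was larger than the difference from control of -0.03, whose interval ran from -0.28 to 0.21. ITD-1 was 0.13 above control, with an interval of -0.11 to 0.38.

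Both corepressors rose with TGFβ1. *Skil* (Entrez gene 20482), which encodes SnoN, gave 7.78, 7.64 and 7.56 with TGFβ1, 6.75, 6.75 and 6.29 with ITD-1, and 6.74, 6.59 and 6.77 in control. *Ski* (Entrez gene 20481), the founding member of that family, gave 7.67, 7.92 and 7.82 with TGFβ1, 7.06, 6.94 and 7.00 with ITD-1, and 7.23, 7.19 and 6.86 in control. For both genes every TGFβ1 array exceeded every other array, and ITD-1 and control overlapped. The rise over control was 0.96 ± 0.13 for *Skil* and 0.71 ± 0.11 for *Ski* (SE), with adjusted p of 0.00142 and 0.00326. Relative to ITD-1, *Skil* was 2.09-fold and *Ski* 1.75-fold higher with TGFβ1, with adjusted p of 4.07e-04 and 8.78e-04. With ITD-1 *Skil* differed from control by -0.10, with an interval of -0.38 to 0.18, and *Ski* by -0.09, with an interval of -0.33 to 0.15. The *Skil* value of ITD-1 replicate 3 was the lowest of all 9, and without that culture the difference from control was 0.05.

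The SMURF genes encode HECT-type ubiquitin ligases that SMAD7 brings to the receptor. *Smurf2* (Entrez gene 66313) gave 8.82, 8.74 and 8.84 with TGFβ1, 8.49, 8.52 and 8.39 with ITD-1, and 8.34, 8.43 and 8.50 in control. Every TGFβ1 array was above every other, with a smaller gap than for *Smad7* or *Skil*, and ITD-1 and control overlapped. *Smurf2* rose by 0.38 ± 0.07 (SE) over control, with an adjusted p of 0.00944, and was 1.26-fold higher than with ITD-1, with an adjusted p of 0.0127. That second call was lost without TGFβ1 replicate 1, at an adjusted p of 0.053. *Smurf2* differed between ITD-1 and control by 0.05, with an interval of -0.11 to 0.20.

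*Smurf1* (Entrez gene 75788) gave 7.02, 7.08 and 7.03 with TGFβ1, 6.87, 6.76 and 6.96 with ITD-1, and 6.96, 6.99 and 6.86 in control. The TGFβ1 arrays were above all others by a narrow margin. The difference from control was 0.11, with an interval of -0.06 to 0.27 and an adjusted p of 0.577. With ITD-1 it was -0.07, with an interval of -0.24 to 0.09. Whether the 2 SMURF genes differed in their response was not tested.

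*Pmepa1* (Entrez gene 65112) had the largest difference of the 10 genes with TGFβ1, against control and against ITD-1. It gave 10.16, 10.08 and 9.87 with TGFβ1, 8.00, 7.89 and 8.44 with ITD-1, and 8.47, 8.49 and 8.29 in control. The TGFβ1 cultures stood far above all others. Of the ITD-1 cultures, 2 lay below every control and replicate 3 lay among the controls. The rise over control with TGFβ1 was 1.62 ± 0.14 (SE), with an adjusted p of 1.37e-04, and *Pmepa1* was 3.79-fold higher with TGFβ1 than with ITD-1, with an adjusted p of 2.04e-05. ITD-1 differed from control by -0.30, with an interval of -0.62 to 0.01 and an adjusted p of 0.652. It was -0.47 without ITD-1 replicate 3 and -0.19 without ITD-1 replicate 2, with adjusted p of 0.135 and 0.853, neither of which passed.

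Against control, none of the 10 genes passed with ITD-1 by the same test, which called 0.0607% of all genes higher and 0.575% lower. *Smad3* alone had an unadjusted p under 0.05, and the methods' analysis of variance called none of the 10, after adjustment or by the methods' own criteria of an unadjusted p under 0.05 and at least 1.5-fold. The median difference was 0.04, against 0.01 over all genes. The ITD-1 arrays lay above all control arrays for *Smad3* alone, 1 of the 10, as they did for 5.22% of all genes, and below them for none of the 10, against 5.92% of all genes. The 95% intervals of the 10 genes reached no further than 0.47 above and 0.62 below control. The comparisons of TGFβ1 and of ITD-1 share the same control arrays.

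**Figure D2:**
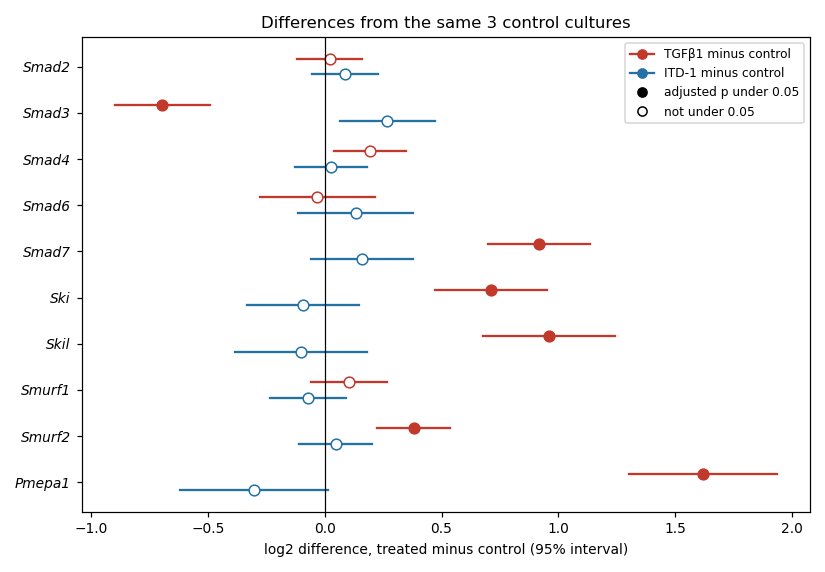
Log2 difference from control of the 10 genes, with TGFβ1 in red above ITD-1 in blue, and the 95% interval as a line. Filled circles passed an adjusted p of 0.05 and open circles did not. With TGFβ1 6 genes pass, from -0.70 for *Smad3* to 1.62 for *Pmepa1*, and with ITD-1 none passes.

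Set directly against each other, TGFβ1 and ITD-1 cultures differed in 6 of the 10 genes, 5 higher (*Pmepa1*, *Skil*, *Ski*, *Smad7* and *Smurf2*) and 1 lower (*Smad3*) with TGFβ1. Of all genes, 5.92% were called higher and 4.26% lower in this comparison. The median difference of the 10 was 0.26, against -0.03 over all genes. *Smad4* was 0.17 higher with TGFβ1, with an interval of 0.02 to 0.32, and *Smurf1* 0.18 higher, with an interval of 0.02 to 0.34, and neither passed after adjustment, at 0.186 each. *Smad2* differed by -0.07, with an interval of -0.21 to 0.07, and *Smad6* by -0.16, with an interval of -0.41 to 0.08.

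The rest of the pathway was read from lists of other genes in the same roles, given as counts and medians. All differences in the following paragraphs are from control. Of the SMADs that BMP receptors activate, 1 of 3 rose with TGFβ1. *Smad5* gave 6.87, 6.94 and 6.88 with TGFβ1, 6.69, 6.70 and 6.70 with ITD-1, and 6.64, 6.70 and 6.48 in control. TGFβ1 arrays were above all others, by 0.29 over control (adjusted p 0.0396), and ITD-1 differed by 0.09. The *Smad5* call held in 7 of 20 alternatives. It was lost in the replicate block, and without any 1 array other than control replicate 2 or ITD-1 replicate 3 (adjusted p 0.0591 to 0.131). *Smad1* differed by -0.01 and *Smad9* by -0.23 with TGFβ1 (adjusted p 0.992 and 0.286), and by 0.24 and -0.10 with ITD-1. The median of the 3 with TGFβ1 was -0.01.

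Ligands of the SMAD2/3 arm went both ways. With TGFβ1, 2 of 7 rose and 2 fell. *Tgfb1* was 3.73-fold and *Tgfb2* 2.84-fold higher, and myostatin (*Mstn*), which limits muscle mass, was 10.98-fold and its relative *Gdf11* 3.26-fold lower. None of the 7 passed the test with ITD-1, where *Tgfb2* differed by -0.47, with an interval of -0.67 to -0.26 (adjusted p 0.0684). Of 8 receptors and co-receptors, *Tgfbr2* alone passed. It gave 6.97, 7.21 and 7.14 with TGFβ1, 6.10, 6.09 and 5.65 with ITD-1, and 6.20, 6.55 and 6.25 in control. The 3 groups did not overlap, with TGFβ1 highest and ITD-1 lowest. The rise with TGFβ1 was 0.77 ± 0.14 (SE, adjusted p 0.00888), and with ITD-1 the difference was -0.39 (adjusted p 0.481). The *Tgfbr2* call with TGFβ1 held in 19 of 20 alternatives, and was lost by the methods' analysis of variance after adjustment (0.0628). The type I receptor *Tgfbr1* differed by -0.36 and the activin receptor *Acvr2a* by -0.32 with TGFβ1 (adjusted p 0.165 each). The median difference with TGFβ1 was 0.11 for the ligands and -0.06 for the receptors, against -0.01 over all genes.

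Of 10 other genes listed as receptor-level modulators, most of whose products act at the receptor, *Ldlrad4* alone passed. It encodes a relative of PMEPA1 that likewise keeps SMAD2 and SMAD3 from the receptor. *Ldlrad4* gave 6.64, 6.43 and 6.39 with TGFβ1, 4.38, 4.28 and 4.14 with ITD-1, and 4.78, 4.69 and 4.60 in control. No groups overlapped, with TGFβ1 highest and ITD-1 lowest. It rose 3.48-fold with TGFβ1 (adjusted p 1.07e-05). ITD-1 differed from control by -0.42, with an interval of -0.63 to -0.21 (adjusted p 0.127). The decoy receptor *Bambi* differed by -0.09 and *Tgfbrap1*, which binds receptors and SMAD4, by 0.15 with TGFβ1 (adjusted p 0.685 and 0.449). The median of the 10 with TGFβ1 was 0.04.

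Of 12 other ubiquitin ligases and deubiquitinases of the pathway, *Trim33* alone passed. Its product, TIF1γ, binds activated SMAD2 and SMAD3 and ubiquitinates SMAD4. *Trim33* gave 6.58, 6.63 and 6.48 with TGFβ1, 6.44, 6.30 and 5.97 with ITD-1, and 6.17, 6.03 and 6.03 in control. TGFβ1 arrays were the highest, and ITD-1 and control overlapped. The rise with TGFβ1 was 0.49 ± 0.11 (SE, adjusted p 0.0338). That call held in 11 of 20 alternatives, and was lost without any 1 array of TGFβ1 or control, or without ITD-1 replicate 2 (adjusted p 0.0516 to 0.124). The deubiquitinases *Usp4*, which acts on the type I receptor, and *Usp9x*, which acts on SMAD4, differed by -0.25 and 0.29 (adjusted p 0.0836 and 0.116). *Usp15*, which acts on receptor-activated SMADs, had the smallest adjusted p of the list with ITD-1, at 0.441 for a difference of 0.23. The median of the 12 with TGFβ1 was 0.02.

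Of 11 other corepressors and coactivators measured, *Tgif1* alone rose. It is a homeodomain protein that recruits histone deacetylases to SMAD2 and SMAD3. *Tgif1* gave 7.49, 7.40 and 7.43 with TGFβ1, 6.79, 6.61 and 6.70 with ITD-1, and 6.75, 6.84 and 6.84 in control. TGFβ1 arrays stood above all others, and ITD-1 and control overlapped. The rise was 1.55-fold (adjusted p 4.48e-04), and ITD-1 differed by -0.11 (adjusted p 0.773). Its relative *Tgif2* differed by 0.39 and *Sin3a*, a scaffold of deacetylase complexes, by 0.23 with TGFβ1 (adjusted p 0.143 and 0.113). The median of the 11 with TGFβ1 was 0.08. With ITD-1 no gene passed the test in the lists of BMP receptor SMADs, ligands, receptors, receptor-level proteins, ubiquitin enzymes or corepressors and coactivators.

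**Figure D3:**
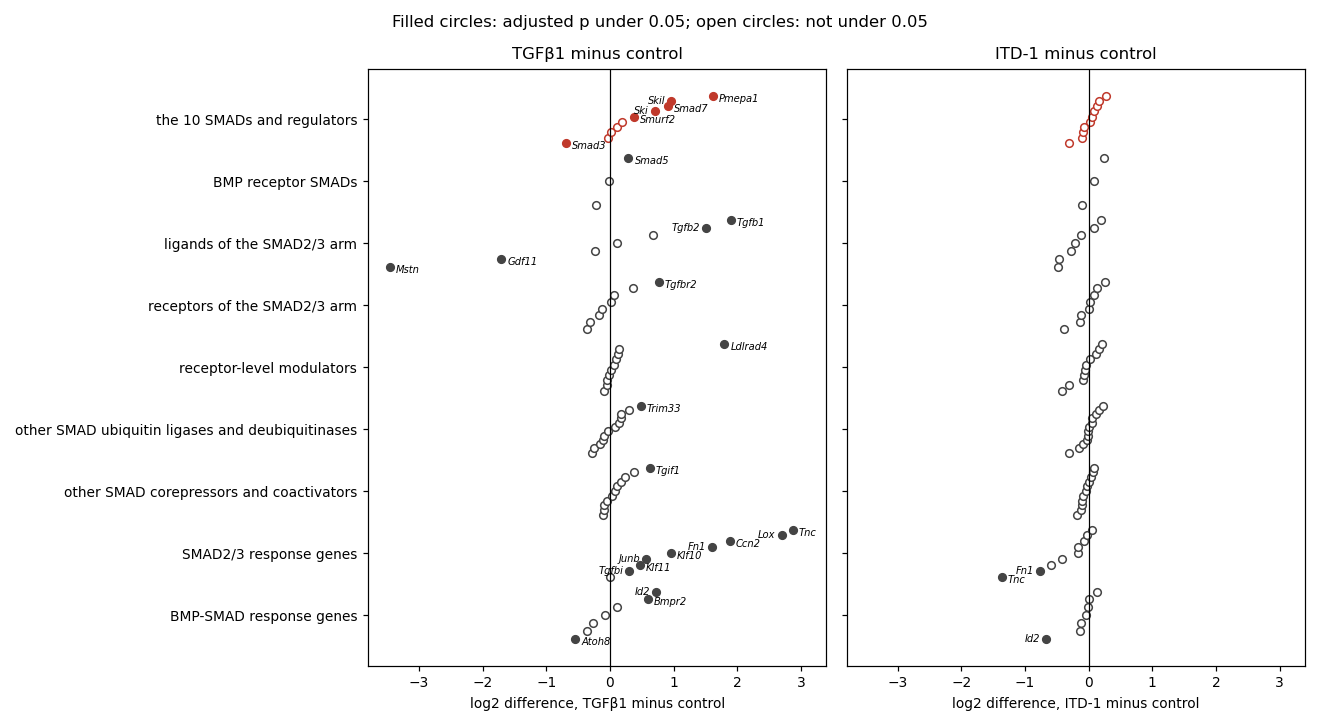
Log2 difference from control of the 10 genes (red) and of 8 lists of other pathway genes (grey), with TGFβ1 on the left and ITD-1 on the right. Each circle is 1 gene, filled and named where its adjusted p was under 0.05, and height within a list only ranks its genes. With TGFβ1 8 of 9 SMAD2/3 response genes are filled, and 1 gene in each list of receptors, receptor-level modulators, ubiquitin enzymes and corepressors.

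Target genes of the activated SMADs were read from lists chosen with earlier results of these data known. Of 9 SMAD2/3 response genes measured, 8 rose with TGFβ1 and none fell, with a median difference of 0.96 against -0.01 over all genes. The weakest of the 8 calls lay just under the threshold, at a limma adjusted p of 0.0498. The matrix protein tenascin C (*Tnc*) rose 7.31-fold, the collagen crosslinking enzyme lysyl oxidase (*Lox*) 6.49-fold and fibronectin (*Fn1*) 3.04-fold, with adjusted p of at most 2.46e-05 from limma. With ITD-1 none rose and 2 fell, *Tnc* by 1.37 and *Fn1* by 0.77 on the log2 scale (adjusted p 0.0097 and 0.014). Under 20 alternatives *Tnc* was called in 15 and *Fn1* in 14. Both calls were lost by the methods' analysis of variance after adjustment (0.104 and 0.102) and with the arrays of the 2 groups only (0.0705 and 0.0743). They were also lost without control replicate 1 (0.0555 and 0.0587) or 2 (0.0594 and 0.0747) and with the replicate block in a fit of the 2 groups, which called no gene. That of *Fn1* was lost without control replicate 3 too (0.0596). Of 7 genes known to respond to BMP SMADs, 2 rose and 1 fell with TGFβ1, *Bmpr2* by 0.59, *Id2* by 0.73 and *Atoh8* with a difference of -0.55 (adjusted p 0.00267, 0.00308 and 0.039), and the median of the 7 was -0.08. *Id2*, an inhibitor of basic helix-loop-helix factors, gave 8.27, 8.35 and 8.34 with TGFβ1, 7.14, 6.95 and 6.71 with ITD-1, and 7.64, 7.46 and 7.69 in control. The 3 groups did not overlap, and *Id2* was the 1 gene of the list that passed with ITD-1, with a difference of -0.66 (adjusted p 0.0296). That call held in 8 of 20 alternatives, and was lost in the replicate block (0.0773) and without any 1 array other than ITD-1 replicate 1 (0.0513 to 0.153). The *Atoh8* call with TGFβ1 held in 10 of 20, and was lost without any 1 array of TGFβ1 or control, or without ITD-1 replicate 1 (adjusted p 0.0555 to 0.134).

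For 3 of the genes that rose, the genes with the most similar course over the 9 arrays were sought among 1379 genes. The values of these spanned at least 1 on the log2 scale, and predicted, clone-named and small RNA genes were left out by symbol. Pearson's r is a description here, since the arrays fall into 3 groups and the coefficient follows mainly the distance of the TGFβ1 arrays from the rest. Closest to *Pmepa1* were *Zfp36l1*, *Tgfb1* and *Dgkz*, at 0.997, 0.997 and 0.996. Closest to *Skil* were *Nucb2*, *Palmd* and *Ptbp3*, at 0.982, 0.980 and 0.980. *Smad7* was most similar to *Ramp1*, *Fas* and *Myh7b*, at 0.974, 0.973 and 0.963. A coefficient of 0.95 or more was reached by 230 genes for *Pmepa1*, 60 for *Skil* and 8 for *Smad7*, so the closest genes are not set apart from many others. *Tgfb1*, the gene of the ligand itself, gave differences of 1.90 with TGFβ1 and -0.48 with ITD-1.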

How the data were processed

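RNA of the 9 cultures was hybridised to Affymetrix MouseGene 2.0 ST arrays. The authors normalized the arrays by RMA, which corrects background, gives all arrays the same distribution and summarises the probes of a gene, using version 22 of a custom CDF. What they deposited are log2 values for each array, with 1 probe set per Entrez gene. RMA can pull small differences together, and many genes have an identical value in several arrays (49.3% in 2 or more). The genome build is not given in the sources used here, and Partek is named in the submitters' processing notes. Of 25428 probe sets, 24704 entered the tests. The others were 723 without a symbol and 1 whose symbol belonged to another probe set too. Array groups were taken from the sample titles.

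The 3 groups were fitted on all 9 arrays with limma 3.58.1 in R 4.3.3 (lmFit and eBayes, a mean per group, two-sided), following the one-way analysis of variance of the methods. P-values were adjusted by Benjamini-Hochberg over the 24704 genes, an adjusted value under 0.05 made a call, and intervals are 95% intervals of the same fit. The steps were tested on simulated data. The 10 genes and the other lists were chosen with earlier results of these data known. Besides the 10 genes, the text names from each list the 3 genes with the smallest adjusted p with TGFβ1 and the 1 with the smallest with ITD-1, and the 3 genes most similar in course to *Smad7*, *Skil* and *Pmepa1*.

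The labels share replicate numbers between groups without saying that they mark pairs. Deviations from the group mean of TGFβ1 and control arrays with the same number correlated at 0.138, 0.155 and 0.305 across genes, so these numbers were treated as possible pairs. The replicate block called the same number of the 10 genes with TGFβ1, 6. Alternatives were other scalings, a filter on low levels, all probe sets, other variance settings, the methods' own test and criteria, the arrays of 2 groups only, array weights, the block and leaving out each array in turn. The block in a fit of only 2 groups, and the alternatives for genes other than the 10, were added after seeing the data. No array was left out of the main comparisons.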

Additional observations from a re-analysis of the deposited data

How the results depend on the processing

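Each difference of the 10 genes was recomputed under 20 alternatives per comparison. Of these values, 589 kept their direction and their side of the threshold, 4 lost the call and 7 changed sign, all 7 in genes that were not called. *Pmepa1*, *Skil*, *Ski*, *Smad7* and *Smad3* were called under all 20 alternatives in both comparisons of TGFβ1, and no gene of the 10 was called with ITD-1 against control under any of them. The 4 lost calls were all of *Smurf2*. The difference was under the methods' 1.5-fold limit in both comparisons, and against ITD-1 the adjusted p was 0.053 without TGFβ1 replicate 1 and 0.100 with the replicate block in a fit of the 6 arrays. Leaving out 1 array at a time gave 6 of the 10 genes called in every fit of TGFβ1 against control and 5 to 6 against ITD-1.

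The sign changed for small differences. With TGFβ1 against control, *Smad6* was 0.0638 with array weights and between -0.147 and 0.0482 without 1 array, and *Smad2* between -0.0106 and 0.0363. With ITD-1 against control, *Smad4* was between -0.0223 and 0.0700 and *Skil* between -0.179 and 0.0498 without 1 array.

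The background over all genes moved more. With TGFβ1 against control 1589 genes were called, 825 by the methods' criteria and 1057 to 1726 without 1 array, the lowest without control replicate 2. With TGFβ1 against ITD-1 2514 were called, 1316 by the methods' criteria and 1505 with the replicate block in a fit of the 2 groups. With ITD-1 against control 157 were called, 18 by the methods' analysis of variance after adjustment, 63 with the arrays of the 2 groups only and 37 to 147 without 1 array, the lowest without control replicate 1. With the replicate block 102 were called there, and 0 when only the 2 groups were fitted. For ITD-1 and control, deviations of same-number arrays correlated at 0.146, -0.0661 and -0.0707. For TGFβ1 and ITD-1 the values were 0.0869, -0.113 and -0.117. Arrays with unlike numbers ranged from -0.121 to 0.161 in the former comparison and from -0.0885 to 0.168 in the latter. Both maxima involved ITD-1 replicate 2, paired with number 3 of the other group. Whether arrays with unlike numbers belong together was not tested, and the replicate block follows the numbers of the labels. The replicate block in the fit of all 9 arrays called the same number of the 10 genes in each comparison (6, 0 and 6). The cause of these differences between settings was not tested. With 3 arrays a group, differences as small as those of *Smad4* and *Smurf1* did not pass the test.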
